A study of Homo sapiens with 12 samples.

Results

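Transcripts of 9 genes of cytokine signalling were followed in THP1 monocytes: the receptor chains IL7R and IL10RA, and the ligands or ligand subunits IL12B, IL23A, EBI3, IL10, IL15, CSF1 and CSF2. The genes were taken by name from the 58735 rows of the count table, with earlier results of these data known. The test required a total of at least 10 counts over the 12 libraries, which 8 of the 9 reached, and CSF2 did not. RNA-sequencing covered 4 groups of 3 libraries of THP1, a wild-type monocytic line that comes from a human leukaemia. In mono-culture, 400000 THP1 cells were kept for 24 h in complete endothelial medium without endothelial cells (ECs). In the co-cultures, the same number of THP1 cells sat in inserts with 1 µm pores above 500000 human umbilical vein ECs. These ECs had been exposed beforehand to the solvent DMSO (control ECs), to etoposide, a topoisomerase inhibitor that damages DNA (senECs), or to etoposide and epigallocatechin gallate, a catechin of green tea (EGCG-treated senECs). The THP1 cells of every group, mono-culture included, were then taken out and given lipopolysaccharide (LPS) at 100 ng/ml for 2 h, so all values describe LPS-stimulated cells. As a model, the system holds a single leukaemia line and ECs made senescent by a drug. The replicates are numbered 1, 2 and 3 in mono-culture and with control ECs, and 1, 2 and 5 with senECs and EGCG-treated senECs. Nothing states that they came from separate cultures or days, and p-values therefore measure the spread between these libraries.

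The libraries held between 15439836 and 22092600 counts, and the factors of the TMM normalization lay between 0.912 and 1.04. Levels are given in CPM, counts per 1000000 counts of the normalized library, and levels of different genes are compared only in FPKM, which divides CPM by the exon length in kilobases. Of 14 monocytic marker genes, all were detected, with a summed level of 1310 to 1649 CPM in mono-culture and 1361 to 2049 CPM in the co-cultures. CD68, a lysosomal protein used as a macrophage marker, was counted at a mean of 0.384 CPM. Whether other gene models overlap CD68 or the other marker genes was not checked. The value for CD68 therefore describes the counts and does not show that the cells express little of it. The 16 endothelial marker genes summed to 22.6 to 28.7 CPM in mono-culture, which held no ECs, and to 25.5 to 35.5 CPM in the co-cultures. Most of that sum was EGFL7, at a mean of 21.9 CPM, while MMRN1 and SOX17 were at 0 in all libraries and CDH5, the cadherin of endothelial junctions, was at 0 in 10 of 12. In such bulk samples, fewer cells that express a gene and less RNA of it per cell cannot be told apart.

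The IL-12 family consists of cytokines built from a pair of chains. IL12B joins IL12A to form IL-12 and IL23A to form IL-23, while EBI3 joins IL27 to form IL-27, and monocytes and macrophages are known to make these chains after LPS. IL10 limits inflammatory transcription through its receptor chains IL10RA and IL10RB and the transcription factor STAT3. IL7R pairs with IL2RG to bind IL-7, a survival factor of lymphocytes, and with CRLF2 to bind TSLP. CSF1 maintains macrophages through the receptor CSF1R, CSF2 (GM-CSF) acts on myeloid cells through CSF2RA and CSF2RB, and IL15 supports natural killer and T cells.

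The stretches of DNA just before the start sites show how these genes differ in sequence. RefSeq (GRCh38.p14) gave a promoter for 7 of the 9 genes, and those of IL23A, EBI3, IL10 and IL7R are printed because the results turn on these genes. Each line holds the 250 bases before the start site, 5′ to 3′ on the strand of the gene, from chr12:56338634-56338883 (+) for IL23A, chr19:4229273-4229522 (+) for EBI3, chr1:206772495-206772744 (-) for IL10 and chr5:35856641-35856890 (+) for IL7R. The RefSeq start sites of IL23A and IL7R lie 4710 and 4196 bases inside the GENCODE gene models. Capitals mark matches to the AP-1 motif TGANTCA, to the STAT motif TTCNNNGAA or to the κB consensus, searched on both strands.
IL23A: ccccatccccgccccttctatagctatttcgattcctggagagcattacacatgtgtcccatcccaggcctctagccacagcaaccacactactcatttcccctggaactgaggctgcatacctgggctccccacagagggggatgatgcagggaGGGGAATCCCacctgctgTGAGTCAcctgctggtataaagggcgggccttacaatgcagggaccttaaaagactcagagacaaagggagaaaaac
EBI3: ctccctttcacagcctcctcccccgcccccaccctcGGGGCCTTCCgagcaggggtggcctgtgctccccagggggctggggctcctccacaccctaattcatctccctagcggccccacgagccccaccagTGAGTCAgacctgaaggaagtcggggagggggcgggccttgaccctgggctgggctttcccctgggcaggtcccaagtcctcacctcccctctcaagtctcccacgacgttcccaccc
IL10: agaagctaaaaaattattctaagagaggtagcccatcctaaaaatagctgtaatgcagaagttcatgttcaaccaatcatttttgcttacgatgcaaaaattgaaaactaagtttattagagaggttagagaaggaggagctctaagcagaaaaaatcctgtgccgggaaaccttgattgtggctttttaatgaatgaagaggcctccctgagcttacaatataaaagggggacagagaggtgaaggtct
IL7R: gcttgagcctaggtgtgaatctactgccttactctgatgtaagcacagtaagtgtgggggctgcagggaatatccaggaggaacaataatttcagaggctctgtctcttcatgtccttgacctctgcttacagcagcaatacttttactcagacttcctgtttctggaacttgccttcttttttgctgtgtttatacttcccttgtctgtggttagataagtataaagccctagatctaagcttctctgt
Both IL23A and EBI3 held a κB match and an AP-1 match, which lay at -95 to -86 and at -77 to -71 in IL23A and at -214 to -205 and at -118 to -112 in EBI3, counted from the start site. IL10RA held an AP-1 match at -73 to -67, and CSF2 a STAT match at -190 to -182. No match was found in the windows of IL10, IL7R and IL12B, which also covered 50 bases after the start site. IL10 had 3 promoter entries, and only the entry nearest the start of its GENCODE gene model was searched. Among 35116 human promoters of this length, 11.3% held a κB match, 7.71% an AP-1 match and 7.66% a STAT match. The matches are a description of the letters, and binding was not measured.

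To see whether ECs change these transcripts, each co-culture was compared with mono-culture. CSF1 was the gene whose co-culture libraries all lay above all mono-culture libraries, and IL7R and IL10 had higher means in every co-culture than in mono-culture, with libraries that overlapped. IL23A and IL15 had lower means in every co-culture than in mono-culture, also with libraries that overlapped, and the co-culture means of IL12B, EBI3 and IL10RA lay on both sides of the mono-culture mean. By edgeR's quasi-likelihood test with adjustment over the 25873 genes tested, 0 of the 8 tested genes passed an adjusted p of 0.05 in any of the 4 comparisons with mono-culture. The share of all tested genes that passed was 0.143% with control ECs, 0.309% with senECs, 0.213% with EGCG-treated senECs and 0.723% for the mean of the 3 co-cultures. At an unadjusted p under 0.05, 1 of the 8 was counted with control ECs (CSF1), beside 6.52% of all genes. With senECs it was 3 of the 8 (CSF1, IL10 and IL7R) beside 11%, with EGCG-treated senECs the same 3 beside 8.58%, and for the mean of the co-cultures again these 3 beside 10.7%. These comparisons share the mono-culture libraries and are not independent of each other. DESeq2, run on the same counts, counted CSF1 for the mean of the co-cultures, at an adjusted p of 0.0463, and 0 of the 8 in the separate comparisons. Of all 25873 genes, DESeq2 counted 436 for the mean of the co-cultures, where edgeR's main fit counted 187. The counts depended on the settings of the fit. With no filter on low counts edgeR counted 1, 2, 2 and 3 of the 8 in the 4 comparisons in this order, IL7R in each of them. Of the 34767 genes then tested, 223, 588, 377 and 582 passed, where the main fit counted 37, 80, 55 and 187 of 25873. With a term for the replicate number (the replicate block) edgeR counted 2, 2, 3 and 4 of the 8, IL7R and IL10 in each. Of all 25873 genes, 469, 709, 424 and 824 passed with this block. What a number marks is not stated.

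**Figure D1:**
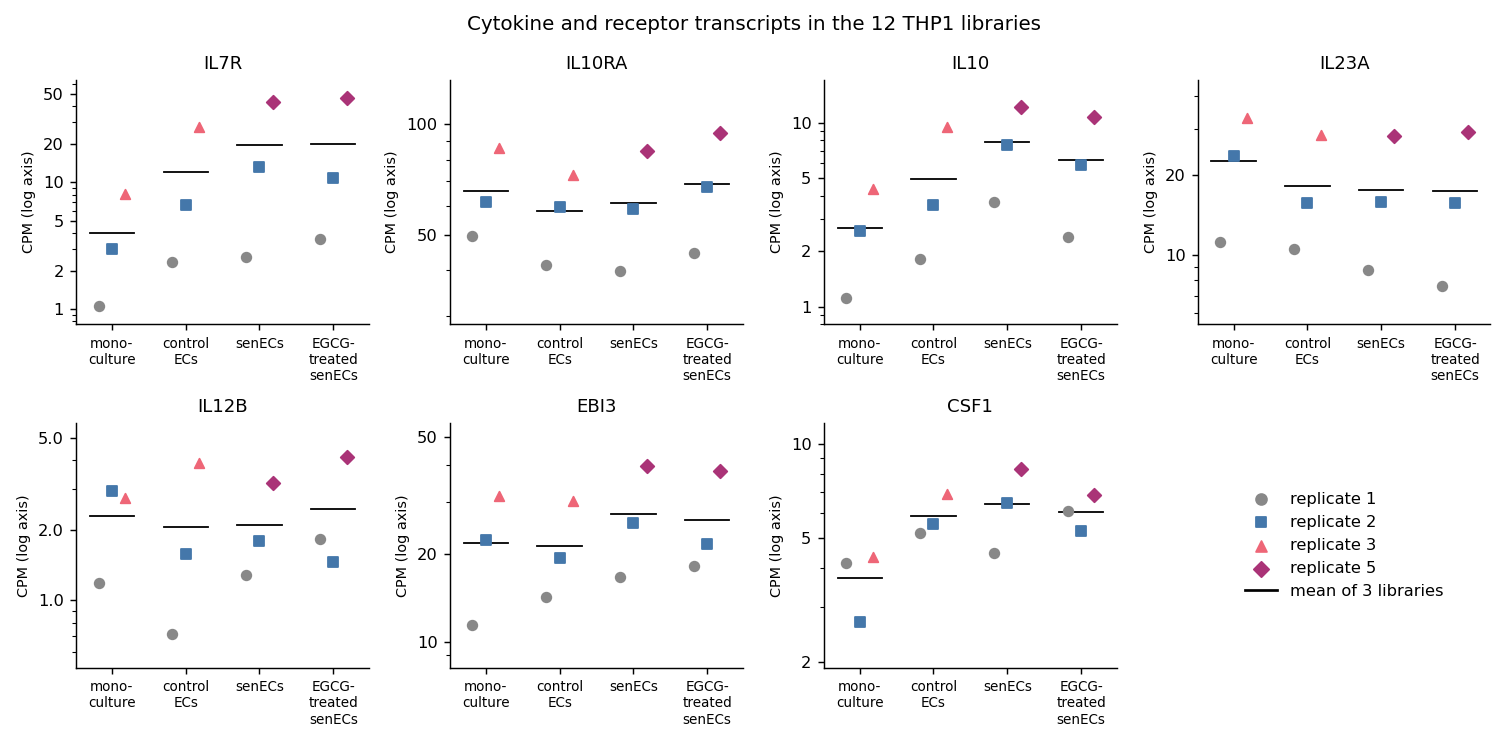
Level in CPM (logarithmic axis) of 7 of the genes in each of the 12 libraries, by group, with symbols for the replicate number and a bar at the mean of 3 libraries. For IL7R the libraries of a group spread over a wider range than the group means, while the 9 co-culture libraries of CSF1, at 4.49 to 8.34 CPM, lie above the 3 of mono-culture, at 2.69 to 4.35 CPM.

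IL7R, the receptor chain for IL-7 (chr5:35852695-35879603, plus strand), was at 1.06, 2.96 and 8.04 CPM in mono-culture replicates 1, 2 and 3. With control ECs it was at 2.35, 6.63 and 27.5 CPM in the same order. The levels were 2.58, 13.2 and 43.3 CPM with senECs and 3.59, 10.8 and 46.3 CPM with EGCG-treated senECs, in replicates 1, 2 and 5. Replicate 1 was the lowest library of each group, and the libraries of the groups overlapped. The mean level was 20.2 ± 22.9 CPM (SD, n = 3 in each group) with EGCG-treated senECs, 19.7 ± 21.1 with senECs, 12.1 ± 13.4 with control ECs and 4.02 ± 3.61 in mono-culture, and each step between neighbours in this order was smaller than the pooled SD. The mean of the co-cultures differed from mono-culture by a log2 fold change of 2.05 ± 0.83 (SE), with a 95% interval from 0.31 to 3.80 (edgeR adjusted p = 0.372). Within groups, the pooled SD of IL7R was 1.56 on the scale of log2(CPM + 1), wider than in 99.99% of the 14397 genes with a mean of at least 1 CPM, for which the median SD was 0.18. Of the partners of IL7R, IL2RG was at a mean of 0.070 FPKM and the ligand IL7 at 0.041 FPKM, against 2.31 FPKM for IL7R, and the alternative ligand TSLP was at 0.512 FPKM.

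IL10 (chr1:206767602-206772494, minus strand) was at 1.12, 2.58 and 4.35 CPM in mono-culture and at 1.82, 3.56 and 9.45 CPM with control ECs, in replicates 1, 2 and 3. In replicates 1, 2 and 5, IL10 was at 3.72, 7.52 and 12.2 CPM with senECs and at 2.38, 5.85 and 10.7 CPM with EGCG-treated senECs. The lowest library of each group was again replicate 1, and the highest library of mono-culture lay above the lowest library of every co-culture. In falling order, the IL10 means were 7.81 ± 4.25 CPM (SD, n = 3 in each group) with senECs, 6.29 ± 4.16 with EGCG-treated senECs, 4.94 ± 4.00 with control ECs and 2.68 ± 1.62 in mono-culture, with every neighbouring step below the pooled SD. Against mono-culture the log2 fold change of the mean of the co-cultures was 1.20 ± 0.49 (SE), with an interval from 0.17 to 2.23 (edgeR adjusted p = 0.379). With senECs alone it was 1.52 ± 0.57 (SE; adjusted p = 0.330).

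IL10RA, the chain of the receptor that binds IL-10 (chr11:117986348-118003037, plus strand), was at 49.7, 61.4 and 86.2 CPM in mono-culture, and the 9 co-culture libraries lay between 39.9 and 94.4 CPM. Its groups overlapped, and its log2 fold change for the mean of the co-cultures was -0.08 ± 0.21 (SE; edgeR adjusted p = 0.946). Per length, IL10RA stood at 7.82 FPKM and its partner IL10RB at 0.579 FPKM. Whether other gene models overlap IL10RB, or other partners of the 9 genes, was not checked.

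CSF1 (chr1:109910242-109930992, plus strand), the growth factor of macrophages, was at 4.17, 2.69 and 4.35 CPM in mono-culture. It was at 5.18, 5.54 and 6.89 CPM with control ECs, at 4.49, 6.48 and 8.34 CPM with senECs and at 6.09, 5.27 and 6.86 CPM with EGCG-treated senECs. All 9 co-culture libraries lay above the 3 of mono-culture, a separation in this direction that 1.77% of all tested genes showed. In the separate comparisons, the share of all tested genes with co-culture libraries all above those of mono-culture was 6.25% for control ECs, 8.18% for senECs and 6.4% for EGCG-treated senECs. CSF1 means were 6.44 ± 1.92 CPM (SD, n = 3 in each group) with senECs, 6.07 ± 0.792 with EGCG-treated senECs, 5.87 ± 0.902 with control ECs and 3.74 ± 0.909 in mono-culture. The step from mono-culture to control ECs was larger than the pooled SD of CSF1, and the steps among the co-cultures were smaller. The log2 fold change for the mean of the co-cultures was 0.71 ± 0.21 (SE), with an interval from 0.28 to 1.15 (edgeR adjusted p = 0.168). CSF1R, the receptor of CSF1, was expressed at 13.5 FPKM, with a log2 fold change of -0.25 ± 0.14 (SE; adjusted p = 0.563) in the same comparison.

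CSF2 (chr5:132073790-132076170, plus strand) had 1 count in mono-culture replicate 2 and 0 in the other 11 libraries. A count of 0 allows a level of up to 0.191 CPM in the library with the lowest normalized total, from counting error alone. IL15 (chr4:141636599-141733987, plus strand) had between 0 and 19 counts in a library, the highest being 1.05 CPM in mono-culture replicate 3. The libraries of IL15 overlapped between all groups, and at this depth a difference was not detectable, with a log2 fold change of -0.41 and an interval from -1.91 to 1.09 for the mean of the co-cultures (edgeR adjusted p = 0.896). The receptor chains for CSF2 and IL15 were better covered, at 8.98 FPKM for CSF2RB and 1.80 FPKM for IL15RA.

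**Figure D2:**
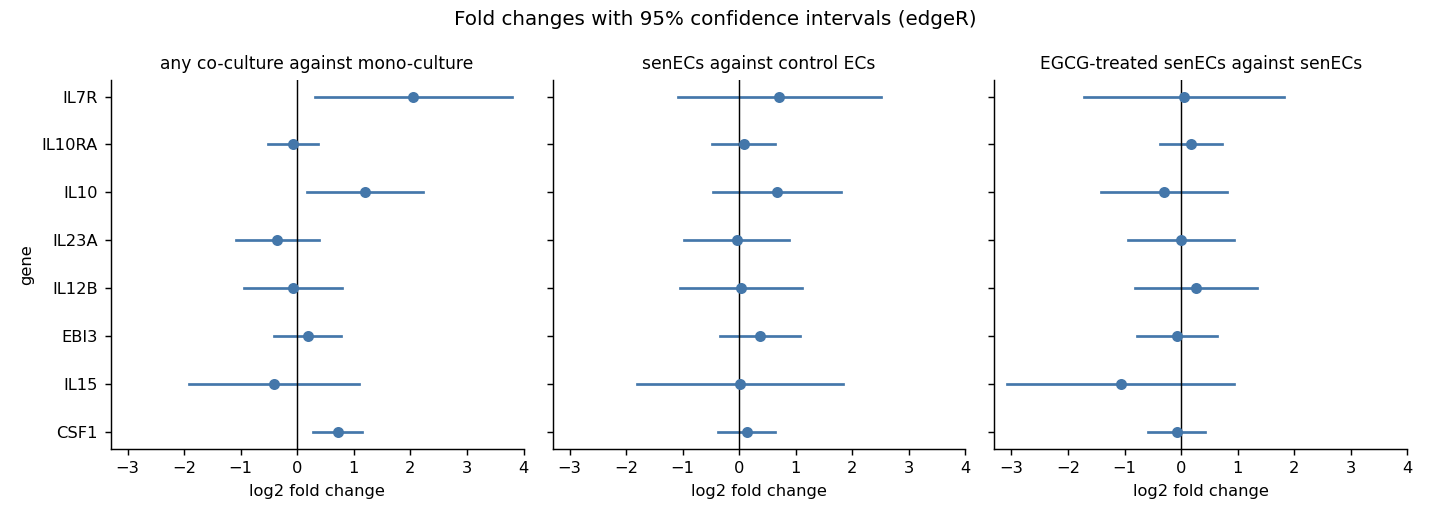
Log2 fold changes (points) with 95% confidence intervals (lines) from edgeR for the 8 genes tested, in 3 comparisons. The intervals of IL7R, IL10 and CSF1 leave out 0 for the mean of the co-cultures against mono-culture, where none of the 3 passed the adjusted threshold, and every interval of the 2 comparisons among co-cultures includes 0.

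The subunits of the IL-12 family were present in unequal amounts. Per length, EBI3 (chr19:4229498-4237531, plus strand) had a mean of 18.7 FPKM over the 12 libraries and IL23A (chr12:56334174-56340410, plus strand) of 15.9 FPKM. IL12B (chr5:159314783-159330887, minus strand), the chain that IL-12 and IL-23 share, was at 0.809 FPKM. Their other partners were lower still, at 0.246 FPKM for IL27 and 0.071 FPKM for IL12A, the latter with at most 6 counts in a library. The lowest library of IL23A, at 6.42 FPKM, and of EBI3, at 8.91 FPKM, lay above the highest of IL12B, at 1.49 FPKM. An antisense gene overlaps IL12B without sharing exon bases with it. On the side of the receptors, IL12RB2, a chain of the IL-12 receptor, had the highest level of the family list at 39.6 FPKM, IL27RA was at 8.33 FPKM, and IL23R was at 0.046 FPKM.

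**Figure D3:**
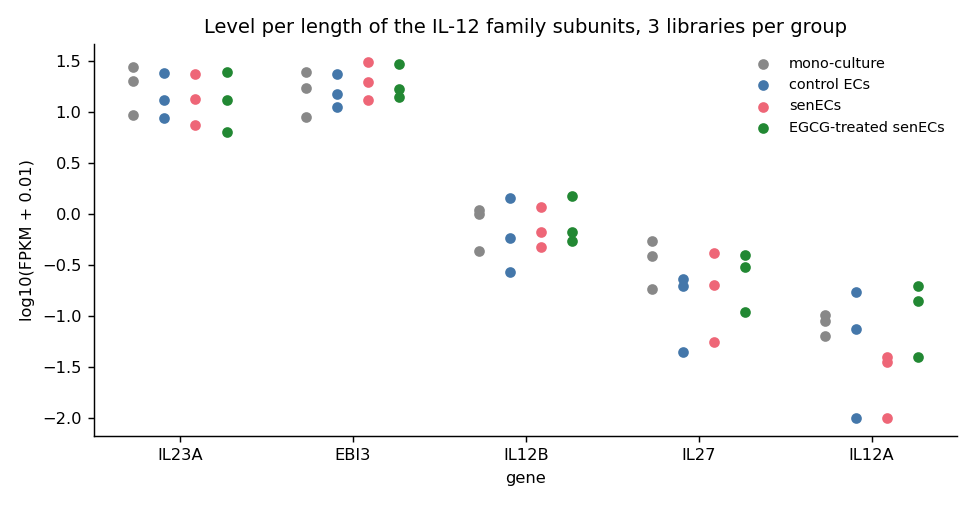
Level per length of 5 subunits of the IL-12 family, as log10(FPKM + 0.01), with a point for each library and a colour for each group of 3. EBI3 and IL23A, at means of 18.7 and 15.9 FPKM, stand above IL12B, at 0.809 FPKM, in every library, and IL27 and IL12A have lower means.

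IL23A was at 11.1, 23.6 and 32.8 CPM in mono-culture and at 10.5, 15.6 and 28.3 CPM with control ECs. With senECs IL23A was at 8.77, 15.8 and 28.2 CPM, and with EGCG-treated senECs at 7.62, 15.6 and 29.1 CPM. Replicate 1 was the lowest library in each group, and the group means of 22.5 ± 10.9 (SD, n = 3), 18.1 ± 9.20, 17.6 ± 9.81 and 17.4 ± 10.8 CPM, in that order of groups, differed by less than the spread. The log2 fold change of IL23A for the mean of the co-cultures was -0.35 ± 0.35 (SE; edgeR adjusted p = 0.783). EBI3 was at 11.4, 22.2 and 31.3 CPM in mono-culture and at 14.2, 19.2 and 30.1 CPM with control ECs. In co-culture with senECs EBI3 was at 16.6, 25.4 and 39.8 CPM, and after their treatment with EGCG at 18.1, 21.6 and 38.1 CPM. Its groups overlapped as well, with a log2 fold change of 0.18 ± 0.28 (SE; edgeR adjusted p = 0.878). IL12B, counted 15 to 77 times in a library, ranged from 1.18 to 2.96 CPM in mono-culture and from 0.720 to 4.12 CPM in the co-cultures, with a log2 fold change of -0.07 ± 0.42 (SE; edgeR adjusted p = 0.978).

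To ask whether senescence of the ECs, or its treatment with EGCG, altered the 9 transcripts, the co-cultures were compared with each other. No gene of the set had libraries with senECs that lay apart from those with control ECs, while 5.31% of all tested genes had libraries with senECs all above and 5.66% all below. The 8 log2 fold changes ran from -0.04 for IL23A to 0.71 for IL7R, with a median of 0.10, beside -0.01 over all genes tested. Of the 8, 7 were positive, beside 12717 of all 25873 genes tested. Most of the 8 genes were low and high in the same libraries, so their signs are not independent of each other. For IL7R the log2 fold change of 0.71 had an interval from -1.09 to 2.50, and for IL10 the value of 0.67 had one from -0.46 to 1.80. EBI3 differed by 0.37, with an interval from -0.35 to 1.08, and CSF1 by 0.13, with one from -0.37 to 0.63. In edgeR's test 0 of the 8 genes and 0% of all genes passed the adjusted threshold, and 0 of the 8 had an unadjusted p under 0.05, beside 6.61% of all genes. Here too the counts depended on the settings of the fit. With no filter on low counts IL7R passed (edgeR adjusted p = 0.0169), beside 114 of all 34767 genes. With the replicate block IL10 passed and IL7R did not, beside 153 of all 25873 genes.

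Between EGCG-treated senECs and senECs, the log2 fold change was 0.05 for IL7R, with an interval from -1.71 to 1.82, and -0.30 for IL10, with one from -1.41 to 0.82. CSF1 differed by -0.08, with an interval from -0.58 to 0.42, and EBI3 by -0.07, with one from -0.78 to 0.64. The lowest value of the set, -1.07 for IL15, rested on 12 counts in the 3 treated libraries and had an interval from -3.07 to 0.93. Libraries overlapped for each gene, while 3.17% of all tested genes had EGCG libraries all above and 2.31% all below, and 0 of the 8 passed at an adjusted p of 0.05 or an unadjusted p under 0.05, beside 0% and 2.22% of all genes. The widths of these intervals do not show that the co-cultures are alike. Between EGCG-treated senECs and control ECs, the values ran from -1.05 for IL15 to 0.76 for IL7R, and again 0 of the 8 passed at either threshold, beside 0% and 4.55% of all genes.

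The genes kept different proportions to each other within a library, a description chosen after the values were seen and made without a test. For 1 count of IL23A, the same library held 1.03, 0.941 and 0.955 counts of EBI3 in mono-culture and 1.36, 1.23 and 1.06 with control ECs. It held 1.89, 1.61 and 1.41 counts of EBI3 with senECs and 2.38, 1.38 and 1.31 with EGCG-treated senECs. All 9 co-culture libraries lay above those of mono-culture, and the libraries with senECs lay above those with control ECs. IL10 was at 0.101, 0.109 and 0.133 counts per count of IL23A in mono-culture and at 0.174, 0.228 and 0.333 with control ECs. With senECs IL10 was at 0.424, 0.474 and 0.433 counts per count of IL23A, and with EGCG-treated senECs at 0.312, 0.374 and 0.366. The IL10 ratios of mono-culture, control ECs and senECs were ordered without overlap. The libraries with EGCG-treated senECs lay below those with senECs and overlapped those with control ECs. Of 14396 other genes set against IL23A in this way, 0.577% had co-culture libraries all above mono-culture. For 0.452%, libraries with senECs lay all above those with control ECs, and for 0.0417%, libraries with EGCG-treated senECs lay all below those with senECs. IL23A itself spread within groups more widely than 99.6% of 14397 genes, and the ratio of a steadier gene to it takes on this spread. The shares therefore depend on the denominator and do not measure how unusual the ratios of EBI3 and IL10 are.

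For IL7R the ratio to IL23A ran from 0.0950 to 0.245 in mono-culture, from 0.225 to 0.969 with control ECs, from 0.294 to 1.54 with senECs and from 0.472 to 1.59 with EGCG-treated senECs. Its mono-culture and control EC libraries overlapped. The ratios to IL23A were picked from the 21 pairs that 7 of the genes form, and the share over all genes was computed for IL23A as the denominator only. Of the 21 pairs, 2 did not overlap between any co-culture and mono-culture. Between senECs and control ECs it was 4, and between EGCG-treated senECs and senECs 2. Set against EBI3, IL10RA or CSF1 in place of IL23A, the co-culture and mono-culture libraries of IL10 overlapped. With these denominators the IL10 ratios also overlapped between senECs and control ECs, and between EGCG-treated senECs and senECs. Set against IL12B, the libraries of IL10 with senECs lay above those with control ECs, and the other comparisons overlapped. A ratio shows that genes changed unequally and not which of them changed.

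**Figure D4:**
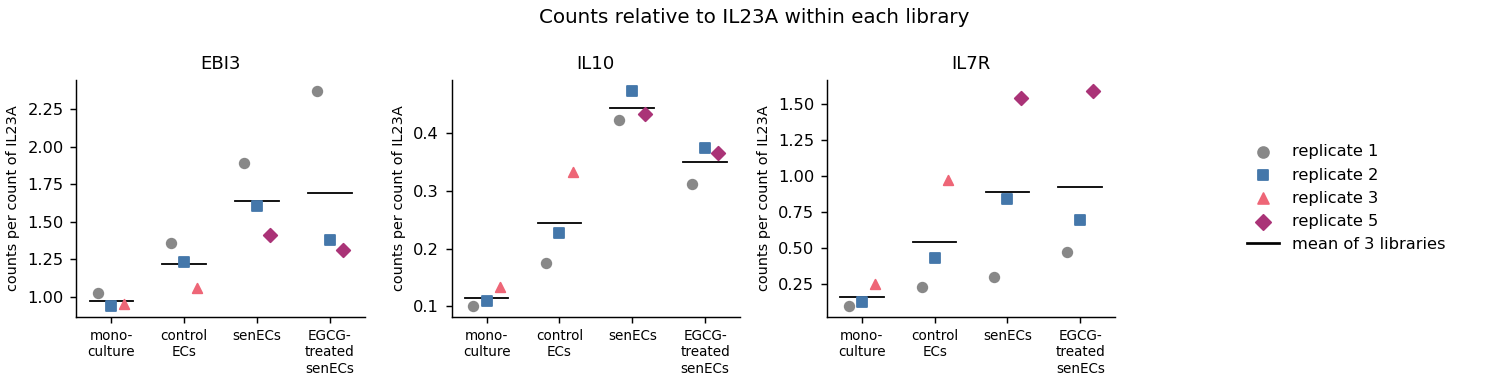
Counts of EBI3, IL10 and IL7R per count of IL23A in the same library (linear axes that do not start at 0), with symbols for the replicate number and a bar at the mean of 3 libraries. The IL10 ratio was 0.101 to 0.133 in mono-culture and 0.424 to 0.474 with senECs, a narrow spread within groups compared with the levels of IL10 itself, while the IL7R ratios spread widely in each co-culture.

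Most of these genes were low and high in the same libraries. For IL7R, IL23A, EBI3, IL10 and IL10RA, replicate 1 was the lowest library in 4 of 4 groups, and replicate 3 or 5 was the highest in 4 of 4. The share of all genes with this order was not computed. Over 14397 genes, the deviations of replicates 1 from their group means correlated at 0.457 to 0.577 between groups, so a shared shift was not particular to this set. IL12B had this order at either end in 3 of 4 groups, and CSF1 had replicate 1 lowest in 2 of 4 and replicate 3 or 5 highest in 4 of 4. The pooled SD of log2(CPM + 1) was 0.82 for IL10, 0.79 for IL23A, 0.60 for EBI3, 0.57 for IL12B, 0.47 for IL10RA and 0.27 for CSF1. Overlap between groups and these SDs take in the shared order. Within the same number, every co-culture library of IL7R, IL10 and CSF1 lay above that of mono-culture, and every co-culture library of IL23A lay below. IL12B, EBI3, IL10RA and IL15 went both ways. Replicate 5 had no mono-culture library, and the share of all genes was not computed. Over the 12 libraries, the Pearson correlation of log2(CPM + 1) was 0.97 between IL7R and IL10 and 0.93 between IL23A and IL10RA, but 0.16 between IL23A and CSF1. For deviations from the group means, the correlations of these pairs were 0.98, 0.98 and 0.54. These correlations describe 12 libraries in 4 groups, which share culture, depth and scaling, and carry no p-value.

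Among 14397 genes with a mean of at least 1 CPM, the pattern most like that of IL7R was shown by TRAF3, a signalling adaptor, at r = 0.98, followed by CD163, the scavenger receptor for haemoglobin, and NRP1, a co-receptor for semaphorins and VEGF. Among the closest to IL10 were HS3ST3B1, a heparan sulfate sulfotransferase, and MERTK, a receptor for apoptotic cells, both at r = 0.97. EBI3 was nearest to PLAUR, the urokinase receptor, at r = 0.98, then to ADAMDEC1 and to CD40, the co-stimulatory receptor. IL23A was nearest to B4GALT1, a galactosyltransferase, at r = 0.98, then to PLEK and NABP1. For IL10RA the nearest were HK3, a hexokinase, at r = 0.98, B4GALT1 and NDRG1. IL12B was closest to SKIL, a repressor of SMAD signalling, at r = 0.95, RAP2C and PELI1. CSF1 was closest to FURIN, a proprotein convertase, at r = 0.95, MMP15 and ADGRE2. For the nearest genes, deviations from the group means also correlated, from 0.94 (CSF1 with FURIN) to 0.99 (IL23A with B4GALT1). The likeness therefore takes in the order of libraries inside the groups, and shared regulation was not tested.

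A minority of the signalling genes of these pathways rose in co-culture. The IL-10 family list held 10 tested genes of 15, and 3 rose in the mean of the co-cultures against mono-culture, beside 0.34% of all genes tested. They were STAT3, which is also on the IL-12 family list, BCL3 and SBNO2. The lists were chosen with earlier results of these data known, so such counts do not show that a pathway was enriched. The median log2 fold change of the list was 0.18, beside -0.02 over all genes tested. STAT3, the transcription factor activated by the receptors for IL-10, IL-23 and IL-27, was at 182, 170 and 175 CPM in mono-culture. STAT3 was at 250, 291 and 298 CPM with control ECs and at 268, 279 and 269 CPM with senECs. After EGCG treatment of the senECs it was at 242, 287 and 283 CPM. All co-culture libraries lay above those of mono-culture, and STAT3 passed the test with control ECs (log2 fold change 0.67, edgeR adjusted p = 0.00476), senECs (0.63, adjusted p = 0.0061) and EGCG-treated senECs (0.62, adjusted p = 0.00875). For the mean of the co-cultures the log2 fold change of STAT3 was 0.64 ± 0.08 (SE; adjusted p = 0.000671). No STAT3 difference was called among the co-cultures, where its log2 fold change was -0.04 between senECs and control ECs and -0.01 between EGCG-treated senECs and senECs.

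BCL3, an atypical IκB protein induced by IL-10, had the highest level of its list at 32.8 FPKM. It was at 58.3, 64.1 and 79.0 CPM in mono-culture and between 98.9 and 155 CPM in the 9 co-culture libraries, with no overlap. BCL3 rose with senECs (log2 fold change 0.93, edgeR adjusted p = 0.00208) and with EGCG-treated senECs (0.91, adjusted p = 0.00376), while with control ECs the value of 0.64 had an adjusted p of 0.0589. SBNO2, a co-regulator induced by IL-10, was at 119 to 141 CPM in mono-culture and 169 to 213 CPM in the co-cultures. SBNO2 rose with senECs (0.60, adjusted p = 0.00852) and EGCG-treated senECs (0.60, adjusted p = 0.0125), while with control ECs the value of 0.47 had an edgeR adjusted p of 0.0765. For the mean of the co-cultures, BCL3 rose by a log2 fold change of 0.83 (adjusted p = 0.000964) and SBNO2 by 0.56 (adjusted p = 0.00223). Without mono-culture replicate 2 the adjusted p of SBNO2 was 0.0505. SOCS3, the feedback inhibitor on the same list, was at 21.4, 34.9 and 50.8 CPM in mono-culture and 38.2 to 101 CPM in the co-cultures, with overlapping libraries and a log2 fold change of 0.83 ± 0.27 (SE; adjusted p = 0.242).

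**Figure D5:**
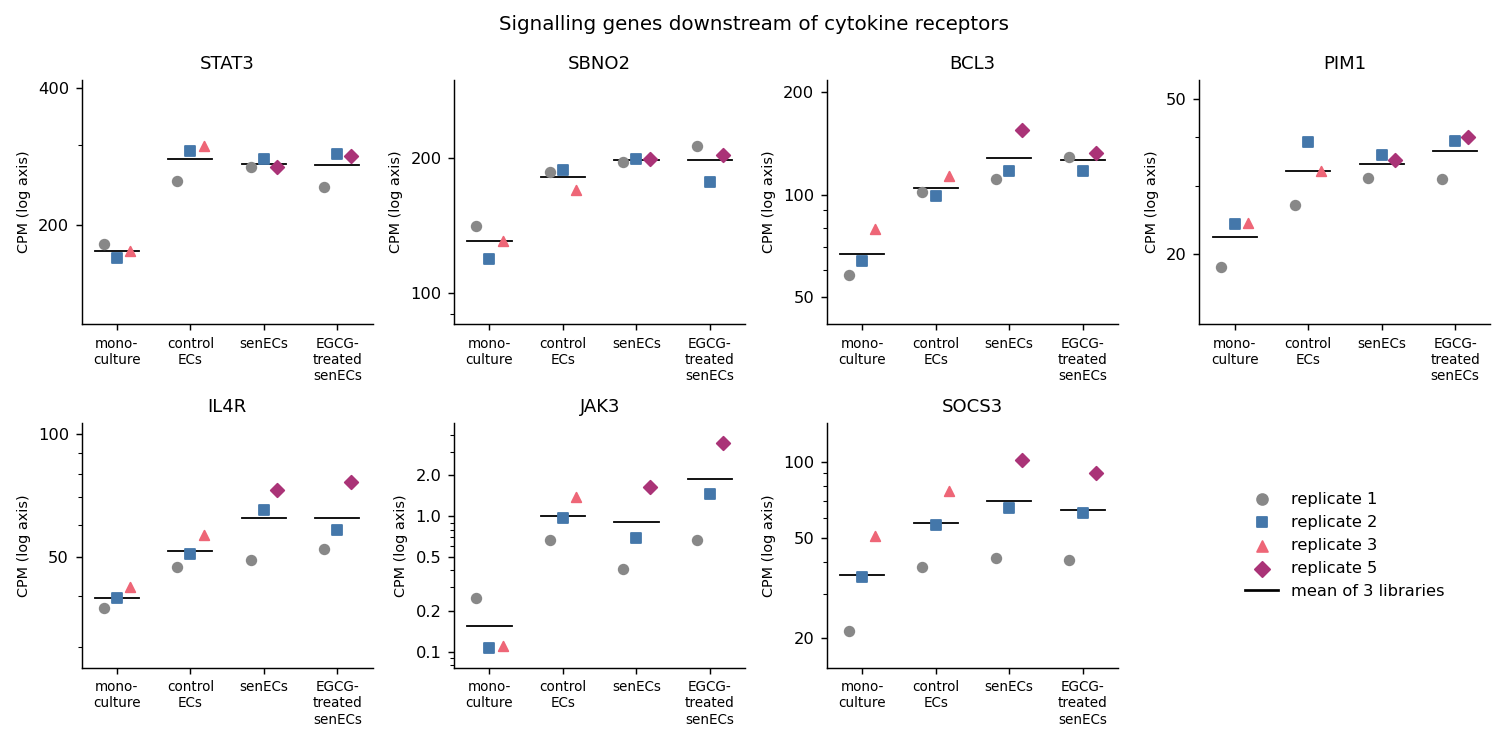
Level in CPM (logarithmic axis) of 7 signalling genes in the 12 libraries, by group, with symbols for the replicate number and a bar at the mean of 3 libraries. STAT3, at 170 to 182 CPM in mono-culture and 242 to 298 CPM in co-culture, is separated between mono-culture and co-culture, while SOCS3 overlaps.

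On the other lists, few genes passed the test. STAT3 was the single gene of the 12 on the IL-12 list to pass for the mean of the co-cultures, and the median log2 fold change of that list was 0.01, beside -0.02 over all genes. Of 14 tested genes of 17 on the common gamma chain list, JAK3, the kinase bound to that chain, and IL4R, the receptor for IL-4 and IL-13, rose, and the median was 0.16. The highest level of this list was that of STAT6, at 28.3 FPKM. JAK3 had 8 counts in the 3 mono-culture libraries together and 8 to 65 in a co-culture library (log2 fold change 2.92 ± 0.65 SE, edgeR adjusted p = 0.038). IL4R was at 37.4 to 42.1 CPM in mono-culture and 47.3 to 76.2 CPM in the co-cultures (0.56 ± 0.12 SE, adjusted p = 0.0348). Of 12 tested genes of 15 on the colony-stimulating factor list, PIM1, a kinase induced by STAT5, rose by 0.64 (adjusted p = 0.0164), and the median was 0.07. CSF3R, the receptor for granulocyte colony-stimulating factor, had the highest level of that list at 37.0 FPKM, with a log2 fold change of -0.00. In the separate comparisons with mono-culture, JAK3 (3.57, adjusted p = 0.0384) and PIM1 (0.73, adjusted p = 0.0406) passed with EGCG-treated senECs and in neither other co-culture, and IL4R passed in none. Between EGCG-treated senECs and senECs, JAK3 and PIM1 were not called (1.06 and 0.11, adjusted p = 1 for both). No gene of the 4 lists passed as lower, and 0 passed among the co-cultures. Of all tested genes, 0.34% passed as higher and 0.383% as lower for the mean of the co-cultures.

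Single libraries decided several of these calls. PIM1 lost its call for the mean of the co-cultures without any of the 3 mono-culture libraries, at adjusted p of 0.136, 0.101 and 0.0649 without replicates 1, 2 and 3. IL4R and JAK3 lost theirs without each mono-culture library, control EC replicate 2 or 3, senEC replicate 2 or EGCG-treated senEC replicate 2, with adjusted p up to 0.249 for IL4R and 0.305 for JAK3, both without mono-culture replicate 2. Of the marker genes, CD14, the LPS co-receptor of monocytes, moved with co-culture, at 5.91 to 11.0 CPM in mono-culture and 12.4 to 65.7 CPM in the co-cultures. CD14 rose with senECs (log2 fold change 2.09, edgeR adjusted p = 0.0363) and in the mean of the co-cultures (1.59, adjusted p = 0.0492). The latter call was lost without 8 of the 12 libraries (each mono-culture library, control EC replicate 2 or 3, senEC replicate 2, and EGCG-treated senEC replicate 2 or 5), with adjusted p up to 0.275 without mono-culture replicate 2. TYROBP, a signalling adaptor, had the highest level of the monocytic markers at 211 FPKM, and no other monocytic and no endothelial marker passed. The part of CD14 in the cytokine values was not tested.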

How the data were processed

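The authors deposited raw read counts, whole numbers for each gene symbol without normalization. The submitters' processing notes name HISAT2 and the build hg38, and the counting program and annotation are not given in the sources used here. All 57169 distinct symbols match GENCODE release 29 (GRCh38), from which positions and exon lengths were taken. A further 4 columns with no described sample were left out, and 23968 of the 58735 rows had no count. The median library total was 18153783 counts, and genes with few counts, such as IL15 and CSF2, are limited by counting error. Libraries were grouped by their labels.

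Differential expression was tested in edgeR 4.0.16 under R 4.3.3, with TMM factors, a quasi-likelihood F test in a single model of the 12 libraries with no term besides the group, and Benjamini-Hochberg adjustment over the 25873 genes that reached 10 counts in all. The mean of the 3 co-cultures against mono-culture was a further contrast of that model. The scripts were first tested on simulated data. FPKM is TMM-scaled CPM per kilobase of exon, not computed for CRLF2, CSF2RA and IL3RA, whose symbols have several gene models. Alternatives were DESeq2 1.42.0, its size factors, other filters, only the libraries of the groups compared, a replicate block and each library left out. Named are the 9 genes, list genes past the threshold, the gene of highest FPKM on each list and the 3 genes most correlated with each of the 9 that had a mean of at least 1 CPM, and a few further partners for context, except 1 gene that is not reported here. The genes and lists were chosen with earlier results of these data known. Promoters came from RefSeq GRCh38.p14. Figures were drawn with matplotlib 3.10.9 in Python 3.11.15.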

Additional observations from a re-analysis of the deposited data

How the results depend on the processing

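The count of the 8 tested genes past an adjusted p of 0.05 was 0 in all 7 comparisons with DESeq2's size factors, edgeR's filterByExpr and each library left out in turn (0 to 0), and 0 in the 6 comparisons of 2 groups with only their own libraries. DESeq2's test gave 1 for the mean of the co-cultures (CSF1) and 0 in the others. With no filter on low counts, where edgeR's prior degrees of freedom became infinite, the count was 1 with control ECs (IL7R), 2 with senECs and 2 with EGCG-treated senECs (IL7R and IL10 in both) and 3 for the mean of the co-cultures (CSF1 as well), and 1 in each of the 2 comparisons with control ECs (IL7R). With the replicate block, where the prior degrees of freedom were 1195 in place of 11.2, it was 2, 2, 3 and 4 in the 4 comparisons with mono-culture, in the same order, where IL7R and IL10 were counted in each, IL23A in the last 2 and CSF1 in the last. It was 1 (IL10) for senECs against control ECs and 0 in the other 2. The count over all genes rose with these settings as well. For the mean of the co-cultures, it went from 187 to 436 with DESeq2, 582 with no filter and 824 with the block. The log2 fold change of IL15 for the mean of the co-cultures reversed to 0.17 with the block. The labels do not say what a number marks, and between the groups that share all 3 numbers the deviations of same-numbered libraries correlated between 0.0703 and 0.554, with 4 of 6 over 0.1 and 5 of 6 libraries closest to their own number. Over all 14 same-numbered pairs the correlations ran from 0.0319 to 0.577, and for the 6 pairs of replicates 1 from 0.457 to 0.577. The numbers were therefore taken as numbers only, and a test of the replicate number itself, which depended on this check, was not run. CD14, IL4R and JAK3 lost their calls for the mean of the co-cultures with filterByExpr (adjusted p of 0.0951, 0.0563 and 0.0601), and CD14 with DESeq2's size factors (0.0526). The cause of these changes was not tested. Leaving out libraries turned signs of values that were not called. For the mean of the co-cultures, log2 fold changes ranged from -0.12 to 0.54 (EBI3), -0.24 to 0.17 (IL10RA), -0.38 to 0.15 (IL12B), -0.97 to 0.52 (IL15) and -0.67 to 0.019 (IL23A), and for control ECs against mono-culture from -0.0023 to 1.38 (IL10). For senECs against control ECs they ranged from -0.10 to 0.34 (CSF1), -0.0086 to 0.70 (EBI3) and -0.61 to 2.12 (IL7R), and for EGCG-treated senECs against senECs from -0.28 to 0.15 (CSF1), -0.46 to 0.31 (EBI3), -0.92 to 0.18 (IL10) and -1.45 to 1.38 (IL7R).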
